A study of Ovis aries with 15 samples.

Results

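The Wnt zonation and pericentral genes described here are 10 genes of fetal sheep (Ovis aries) liver, taken by name from a table of 31411 genes. They are the ligand genes WNT2 and WNT9B, the R-spondin gene RSPO3, the receptor gene LGR5, the ubiquitin ligase genes RNF43 and ZNRF3, the target genes AXIN2 and TBX3, the glutamine synthetase gene GLUL and the ammonia transporter gene RHBG. All 10 names matched the table, and all 10 passed the filter on low counts that left 16977 genes for testing. Poly(A) RNA of liver tissue was sequenced from fetuses at gestational day (GD) 100, 124 and 144, with 4, 5 and 6 libraries. The labels give no treatment, genotype, breed or sex, and leave unsaid whether each library is another fetus. The p-values therefore rest on the spread among these libraries, which may be technical.

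Wnt proteins bind Frizzled receptors with the co-receptors LRP5 or LRP6 and stabilise beta-catenin, which switches on target genes together with TCF factors. In adult liver of the species studied best, endothelial cells around the central vein secrete WNT2, WNT9B and RSPO3, and the hepatocytes next to them respond with a pericentral programme. R-spondins bind LGR receptors and keep RNF43 and ZNRF3 from removing Frizzled from the cell surface. That programme includes glutamine synthetase, which captures the ammonia that the urea cycle of periportal hepatocytes leaves over. RNA of a tissue piece carries no position, so pericentral and periportal are names from that background and not measurements here.

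Library totals ran from 24215612 to 38247295 estimated counts, and 3 counts, taken as the floor of detection, were 0.0797 to 0.128 CPM, which are counts relative to the library total after scaling by the trimmed mean of M values (TMM). Such floors cover counting error only. GD100 replicates 2 to 4 had a fractional count in 10.6 to 10.8% of genes, against 5.09 to 6.2% in the other libraries. GD144 replicate 3 kept more erythroid and proliferation transcripts than the other GD144 libraries (summed marker CPM of 577 against 9.34 to 71.9, and of 207 against 28 to 43.8). The sample codes in the labels differ in their letters between stages, so stage and any batch that follows the codes cannot be told apart. In bulk tissue, fewer cells of a type and less RNA per cell cannot be told apart either. Hepatocyte markers were present in every library, with a summed level of 58050.3 to 257287 CPM.

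Of the 10 genes 4 were called in a stage comparison, and the share called in each comparison did not exceed the share over all genes. Between GD100 and GD124, TBX3 rose and LGR5 fell, which is 2 of 10 where 34% of all tested genes were called (16.6% higher, 17.4% lower). Between GD124 and GD144, WNT9B and LGR5 rose, again 2 of 10, where 27.5% of all genes were called (12.1% higher, 15.4% lower). From GD100 to GD144, WNT9B, TBX3 and ZNRF3 rose, 3 of 10, where 55% of all genes were called (27.1% higher, 27.9% lower). Calls are those at an adjusted p under 0.05 in the quasi-likelihood test of edgeR with Benjamini-Hochberg adjustment over all tested genes. The median log2 change of the 10 genes was 0.15, 0.44 and 0.52 in these comparisons, beside 0.02, -0.01 and 0.03 over all tested genes. Without GD100 replicate 2, or with scaling by total counts alone, LGR5 was the only one of the 10 called between GD100 and GD124, and with GD100 reduced to replicate 1 WNT9B was the only one. With total counts alone the split over all genes moved from 2825 higher and 2949 lower to 1805 and 4055 in the earlier interval, and from 2046 and 2617 to 2520 and 2138 in the later one. That scaling put the median log2 change of all tested genes in the earlier interval at -0.16.

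**Figure D1:**
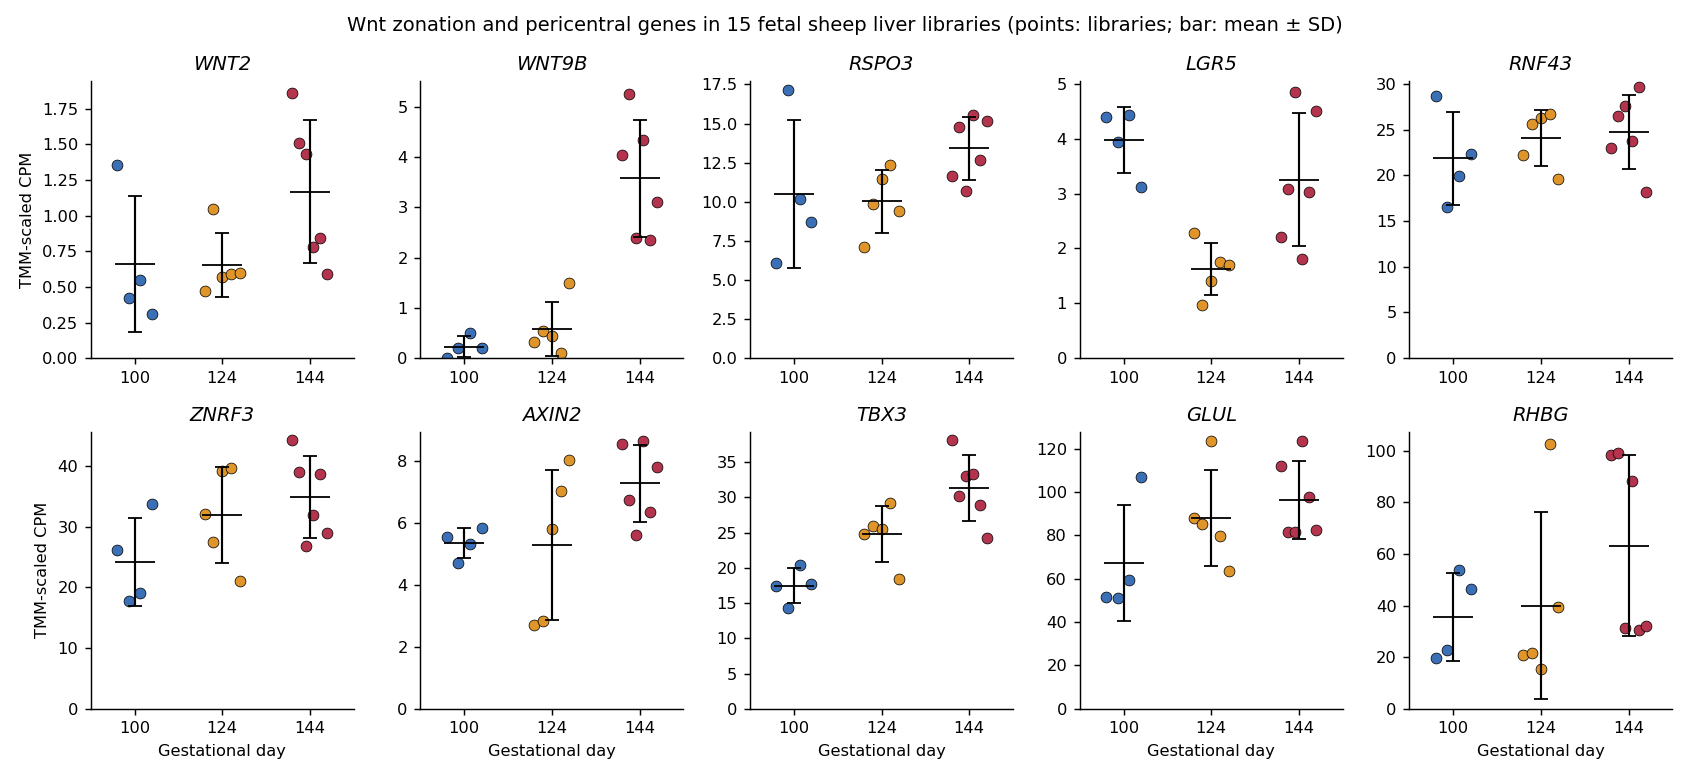
Level of each of the 10 genes in CPM (vertical axes, each starting at 0) against gestational day, with 1 point per library and the mean ± SD of 4, 5 and 6 libraries as black bars. WNT9B was at 2.34 CPM or more in every GD144 library and at 1.49 CPM or less in all earlier ones, LGR5 was lowest at GD124, and RHBG was spread widely within each stage.

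Of the secreted signals, WNT9B rose late, while no change of WNT2 or RSPO3 passed the test. WNT9B, a ligand of the central vein, was at 0, 0.21, 0.51 and 0.196 CPM in GD100 replicates 1 to 4. At GD124 it was at 0.316, 0.54, 0.436, 0.0979 and 1.49 CPM in replicates 1 to 5. The lowest, median and highest values at GD144 were 2.34, 3.58 and 5.26 CPM. All 6 libraries at GD144 thus lay above all 9 earlier ones, and the earlier ones overlapped. Counts per library behind these levels were 0 to 14, 3 to 35 and 78 to 151 in order of stage. In 1 of 4, 3 of 5 and 6 of 6 libraries WNT9B reached the 0.323 CPM that the filter asks of at least 4 libraries. From GD124 to GD144 the fitted rise was 6.29-fold (log2 2.65 ± 0.62 SE, edgeR adjusted p = 0.00446). From GD100 to GD144 it was 15.6-fold (log2 3.96 ± 0.74, edgeR adjusted p = 0.00028). Between GD100 and GD124 the log2 change was 1.31 ± 0.73 (edgeR adjusted p = 0.18). Both calls at GD144 held in each of 25 alternative analyses, with adjusted p up to 0.0152. The size moved with single libraries: without GD124 replicate 5, its highest of that stage, the later log2 change was 3.36, and without GD100 replicate 3 that over the whole span was 4.74. With limma-voom in place of the edgeR test the latter was 4.65. GD100 replicate 1 had no WNT9B count, and with GD100 reduced to it the fit gave a fitted log2 change of 9.79 to GD144 and of 7.12 to GD124 (edgeR adjusted p = 0.0368), values that depend on the prior count.

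WNT2, the other endothelial Wnt ligand of the group, was low throughout. It stood at 1.36, 0.419, 0.546 and 0.313 CPM in GD100 replicates 1 to 4 and at 0.474, 1.04, 0.571, 0.587 and 0.598 CPM in GD124 replicates 1 to 5. At GD144 it ranged from 0.588 to 1.86 CPM with a median of 1.14. GD144 replicates 1 to 3 were the highest of that stage and overlapped nothing at GD124, while replicates 4 to 6 lay among the earlier libraries. The log2 change was -0.02 ± 0.47 from GD100 to GD124 (edgeR adjusted p = 0.98) and 0.83 ± 0.43 from GD124 to GD144 (edgeR adjusted p = 0.164), with a 95% interval of -0.07 to 1.74 for the latter. From GD100 to GD144 it was 0.81 ± 0.46 (edgeR adjusted p = 0.147). Without GD100 replicate 1, the highest library of its stage, that comparison gave 1.45 and was called (edgeR adjusted p = 0.0144).

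RSPO3, which amplifies Wnt signals at the receptor, was at 6.06, 17.1, 10.2 and 8.72 CPM in GD100 replicates 1 to 4. It was at 7.08, 9.87, 11.4, 12.3 and 9.43 CPM in GD124 replicates 1 to 5, and at 10.7 to 15.5 CPM with a median of 13.7 at GD144. GD100 replicate 2 was above every other library of the study, and the 3 stages overlapped. The log2 changes were -0.07 ± 0.24, 0.42 ± 0.22 and 0.35 ± 0.24 in the earlier interval, the later interval and the whole span (edgeR adjusted p = 0.853, 0.174 and 0.22). Without GD100 replicate 2 the whole span gave 0.70 and was called (edgeR adjusted p = 0.0107), and with GD100 reduced to replicate 1 it gave 1.15 (edgeR adjusted p = 0.00894).

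Endothelial markers moved over the same stages. Of 16 names 15 matched the table and were tested. Between GD124 and GD144, 12 of 15 rose and 0 fell, among them VWF (log2 1.17), ERG (log2 0.88) and the angiopoietin receptor gene TEK (log2 1.15), and between GD100 and GD124, 5 rose and 2 fell. Summed over these markers, the GD100 libraries held 435 to 716 CPM, the GD124 libraries 503 to 826 and the GD144 libraries 825 to 1175.45, and no tested marker averaged under 1 CPM in any stage. Beside the mean log2 level of these markers, WNT9B stood at -6.46 ± 1.09 (SD, n = 4) at GD100, -5.74 ± 1.32 (SD, n = 5) at GD124 and -3.75 ± 0.49 (SD, n = 6) at GD144. On this scale the GD144 range (-4.40 to -2.95) lay above GD100 (-7.88 to -5.33) and reached into GD124 through replicate 5 of that stage (-3.73). WNT2 beside the same markers was at -5.00 ± 1.05, -5.25 ± 0.50 and -5.36 ± 0.76, and RSPO3 was at -1.04 ± 0.29, -1.42 ± 0.33 and -1.82 ± 0.23, so that for RSPO3 all 6 GD144 libraries (-2.12 to -1.47) lay below all 4 GD100 libraries (-1.36 to -0.71). The marker mean itself was 4.34 at GD100 and 5.56 at GD144, so a gene of unchanged CPM also falls on this scale. In CPM the RSPO3 change over that span was log2 0.35 and was not called. The share of all tested genes that separate in this way was not counted. RSPO3 is also known from stellate cells. Of 14 stellate and pericyte markers 6 rose and 0 fell in the later interval, with sums of 793 to 1155.63 CPM (GD100), 1242.6 to 1599.06 (GD124) and 1243.1 to 2082.7 (GD144), and RSPO3 beside them was at -1.35 ± 0.38, -1.93 ± 0.30 and -2.09 ± 0.18. The part of the marker changes in the levels of the ligands was not tested.

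**Figure D2:**
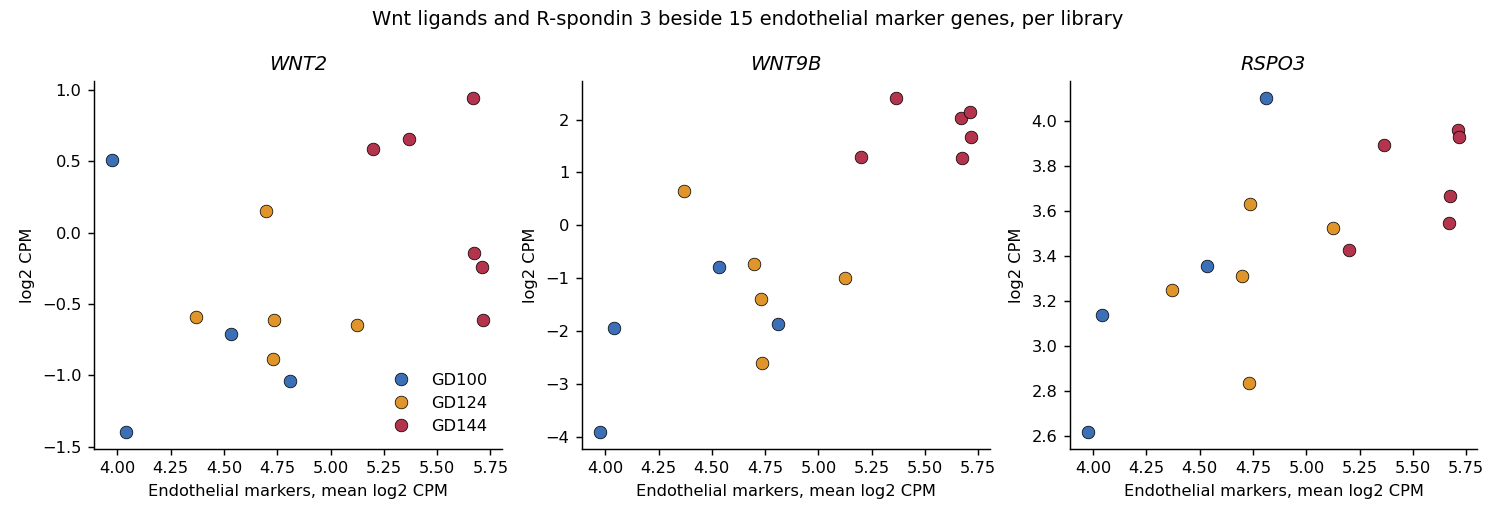
Level of WNT2, WNT9B and RSPO3 (vertical axes, log2 CPM) against the mean log2 CPM of 15 endothelial marker genes (horizontal axes), with 1 point per library and colours for the stages. The GD144 libraries have the highest marker means, at 5.20 to 5.72, and in the WNT9B panel they are also the 6 highest points.

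Among the receptor-level genes LGR5 dipped at GD124. LGR5 encodes an R-spondin receptor and is itself a Wnt target in pericentral hepatocytes. It stood at 4.39, 3.95, 4.44 and 3.13 CPM in GD100 replicates 1 to 4 and at 2.27, 0.972, 1.41, 1.76 and 1.71 CPM in GD124 replicates 1 to 5. At GD144 the lowest, median and highest values were 1.82, 3.06 and 4.86 CPM. No GD124 library reached the lowest GD100 library, and 2 of the 6 GD144 libraries, replicates 1 and 4, lay within the GD124 range. The level fell 2.44-fold to GD124 (log2 -1.29 ± 0.31, edgeR adjusted p = 0.00482) and rose to GD144 (log2 0.997 ± 0.28, edgeR adjusted p = 0.015). GD144 and GD100 differed by -0.29 ± 0.29 on the log2 scale (95% interval -0.91 to 0.32, edgeR adjusted p = 0.415). The later change minus the earlier change was 2.29 ± 0.53 (edgeR adjusted p = 0.0209), which made LGR5 the only one of the 10 genes called in that contrast, where 5.9% of all tested genes were called (2.15% higher, 3.75% lower). That call was lost without GD124 replicate 2 (adjusted p = 0.0647) or GD124 replicate 3 (adjusted p = 0.052). With GD100 reduced to replicate 1 it was lost as well (adjusted p = 0.0568), and the log2 change of -1.43 to GD124 missed the threshold (adjusted p = 0.0593).

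RNF43 and ZNRF3, ligases that remove Frizzled receptors and are switched on by Wnt signals as feedback, were called in neither interval. RNF43 was at 28.6, 16.6, 20 and 22.3 CPM in GD100 replicates 1 to 4, at 22.2, 25.7, 26.3, 26.7 and 19.6 CPM in GD124 replicates 1 to 5 and at 18.2 to 29.7 CPM with a median of 25.2 at GD144. The GD100 and GD144 ranges spanned almost the same values. Its log2 changes were 0.14 ± 0.17, 0.04 ± 0.15 and 0.18 ± 0.16 (edgeR adjusted p = 0.548, 0.876 and 0.36), with 95% intervals of -0.22 to 0.50, -0.28 to 0.36 and -0.16 to 0.52. ZNRF3 was at 26.1, 17.8, 19.1 and 33.6 CPM in GD100 replicates 1 to 4, at 32, 27.5, 39.1, 39.6 and 21 CPM in GD124 replicates 1 to 5 and at 26.8 to 44.3 CPM with a median of 35.3 at GD144. It rose 1.44-fold from GD100 to GD144 (log2 0.53 ± 0.21, edgeR adjusted p = 0.0446), while the stages overlapped and the intervals gave 0.40 ± 0.22 and 0.13 ± 0.20 (edgeR adjusted p = 0.174 and 0.667). That call was lost in 13 of 25 alternatives. These include leaving out GD100 replicates 1, 2 or 3, GD124 replicates 1 or 2, or GD144 replicates 1, 2 or 5 (adjusted p of 0.0508 to 0.128), with log2 changes of 0.42 to 0.57.

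AXIN2 and TBX3 are targets of Wnt signals. AXIN2, a scaffold of the beta-catenin destruction complex whose transcription is a common readout of the pathway, was at 5.56, 4.72, 5.32 and 5.83 CPM in GD100 replicates 1 to 4. At GD124 it split widely, with 2.72 and 2.85 CPM in replicates 1 and 2 and 5.81, 7.01 and 8.02 CPM in replicates 3 to 5. At GD144 it ranged from 5.6 to 8.65 CPM with a median of 7.26. The SD was 0.475 CPM at GD100, 2.41 at GD124 and 1.24 at GD144. The log2 changes were -0.02 ± 0.28, 0.46 ± 0.26 and 0.44 ± 0.28 (edgeR adjusted p = 0.963, 0.198 and 0.185), with a 95% interval of -0.14 to 1.02 over the whole span.

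TBX3, a T-box repressor active in early hepatoblasts and in pericentral hepatocytes, was at 17.4, 14.3, 20.4 and 17.7 CPM in GD100 replicates 1 to 4. It was at 24.8, 26, 25.6, 29.2 and 18.4 CPM in GD124 replicates 1 to 5 and at 24.3 to 38.1 CPM with a median of 31.7 at GD144. Every GD144 library was above every GD100 library, and of the GD124 libraries replicate 5 alone lay within the GD100 range. TBX3 rose 1.79-fold over the whole span (log2 0.84 ± 0.15, edgeR adjusted p = 0.000181), a call that held in each of 25 alternatives with log2 changes of 0.75 to 0.98. In the earlier interval it rose 1.42-fold (log2 0.51 ± 0.15, edgeR adjusted p = 0.0191), and in the later one the log2 change was 0.34 ± 0.14 (edgeR adjusted p = 0.0823). The earlier call was lost without GD100 replicate 2 (log2 0.40, adjusted p = 0.0843), with total counts alone (log2 0.32, adjusted p = 0.149) and with GD100 reduced to replicate 1 (adjusted p = 0.178). The later value was called without GD100 replicate 2 (adjusted p = 0.0484), without GD144 replicate 6 (adjusted p = 0.0442) and with total counts alone (adjusted p = 0.0454).

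**Figure D3:**
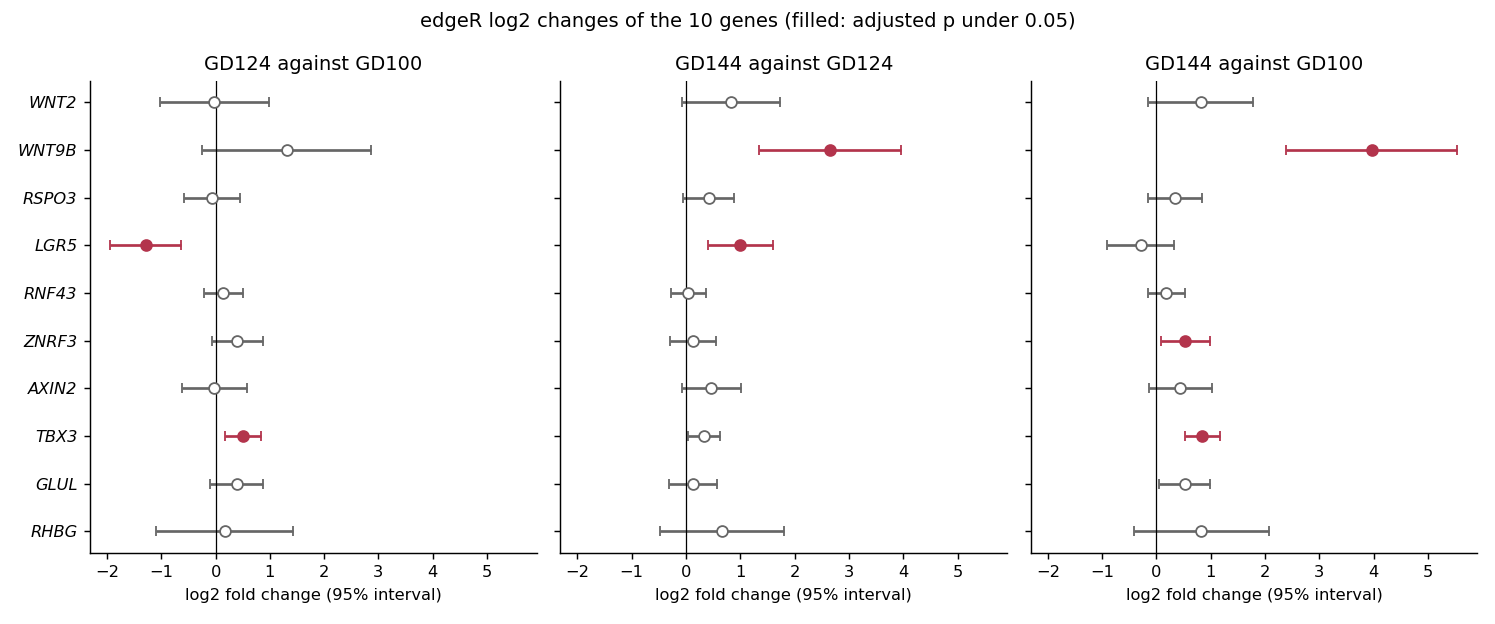
Log2 fold change of the 10 genes (rows) in the 3 comparisons (panels), with 95% intervals from the edgeR fit and filled points for an adjusted p under 0.05. The filled points are LGR5 at -1.29 and TBX3 at 0.51 in the earlier interval, WNT9B at 2.65 and LGR5 at 0.997 in the later one, and WNT9B, TBX3 and ZNRF3 over the whole span.

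GLUL and RHBG stand at the metabolic end of the programme, and neither was called in any comparison. GLUL, which joins ammonia to glutamate, was at 51.8, 51.1, 59.4 and 107 CPM in GD100 replicates 1 to 4. It was at 87.9, 85.1, 124, 79.6 and 63.5 CPM in GD124 replicates 1 to 5 and at 81.3 to 123 CPM with a median of 90.1 at GD144. Replicate 4 was the only GD100 library within the range of GD144, and all 5 GD124 libraries lay above the other 3 GD100 libraries. The log2 changes were 0.39 ± 0.23, 0.13 ± 0.21 and 0.52 ± 0.23 (edgeR adjusted p = 0.213, 0.685 and 0.0615). Without GD100 replicate 4 the earlier interval gave 0.67 (edgeR adjusted p = 0.016) and the whole span 0.84 (edgeR adjusted p = 0.00198), and both were called. Over the whole span GLUL was also called with limma-voom (log2 0.57, adjusted p = 0.0347), with no filter beyond a count above 0 (adjusted p = 0.0487), without GD124 replicate 3 (adjusted p = 0.049) and, at log2 0.90, with GD100 reduced to replicate 1 (adjusted p = 0.0363). GD100 replicate 4 had the highest mean log2 level of hepatocyte markers of its stage (12.22, against 10.82 to 11.53 in replicates 1 to 3) and the lowest of erythroid markers (7.88, against 8.07 to 9.14). The part of this in its GLUL value was not tested.

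RHBG, a membrane channel for ammonia, varied widely within stages. It was at 19.5, 22.9, 53.7 and 46.4 CPM in GD100 replicates 1 to 4 and at 21, 21.5, 15.6, 102.5 and 39.5 CPM in GD124 replicates 1 to 5. In GD144 replicates 1 to 6 it was at 98.2, 99, 31.3, 88.2, 30.7 and 32.1 CPM. GD124 replicate 4 and GD144 replicates 1, 2 and 4 thus had 88.2 CPM or more, and the other 11 libraries had 53.7 or less. The SD of its log2 level within stages was 0.92, above that of 97.7% of the 4041 tested genes whose mean level was within 2-fold of its own and whose median SD was 0.25. The log2 changes were 0.17 ± 0.59, 0.66 ± 0.53 and 0.83 ± 0.58 (edgeR adjusted p = 0.852, 0.395 and 0.241), with a 95% interval of -0.41 to 2.07 over the whole span. Without GD124 replicate 4 the later interval gave 1.37 and was called (edgeR adjusted p = 0.0466), and the earlier one gave -0.55.

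The gene whose pattern over the 15 libraries came closest to RHBG was SLC13A5, which encodes a citrate importer of the liver cell. Likeness was the mean absolute difference between the log2 profiles, each centred on its own mean, and it was 0.53 for SLC13A5, 0.55 for LZTS1 and 0.56 for ACE, where the median over all candidate genes was 0.84. With profiles of the same libraries centred within each stage, a measure added after the values were seen, SLC13A5 was again the closest, at 0.39. SLC13A5 was picked from 12238 candidates for this likeness, so a distance below the median and shared high libraries follow from the choice. SLC13A5 stood at 25, 21.4 and 16.9 CPM in GD144 replicates 1, 4 and 2, the same 3 libraries that were high in RHBG, and at 6 to 8.27 CPM in replicates 3, 5 and 6. At GD124 its highest values were 6.85 CPM in replicate 4 and 6.4 CPM in replicate 5, against 2.28 to 2.81 CPM in replicates 1 to 3. At GD100 the 2 genes did not share their highest library, which was replicate 2 for SLC13A5 (7.44 CPM) and replicate 3 for RHBG.

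**Figure D4:**
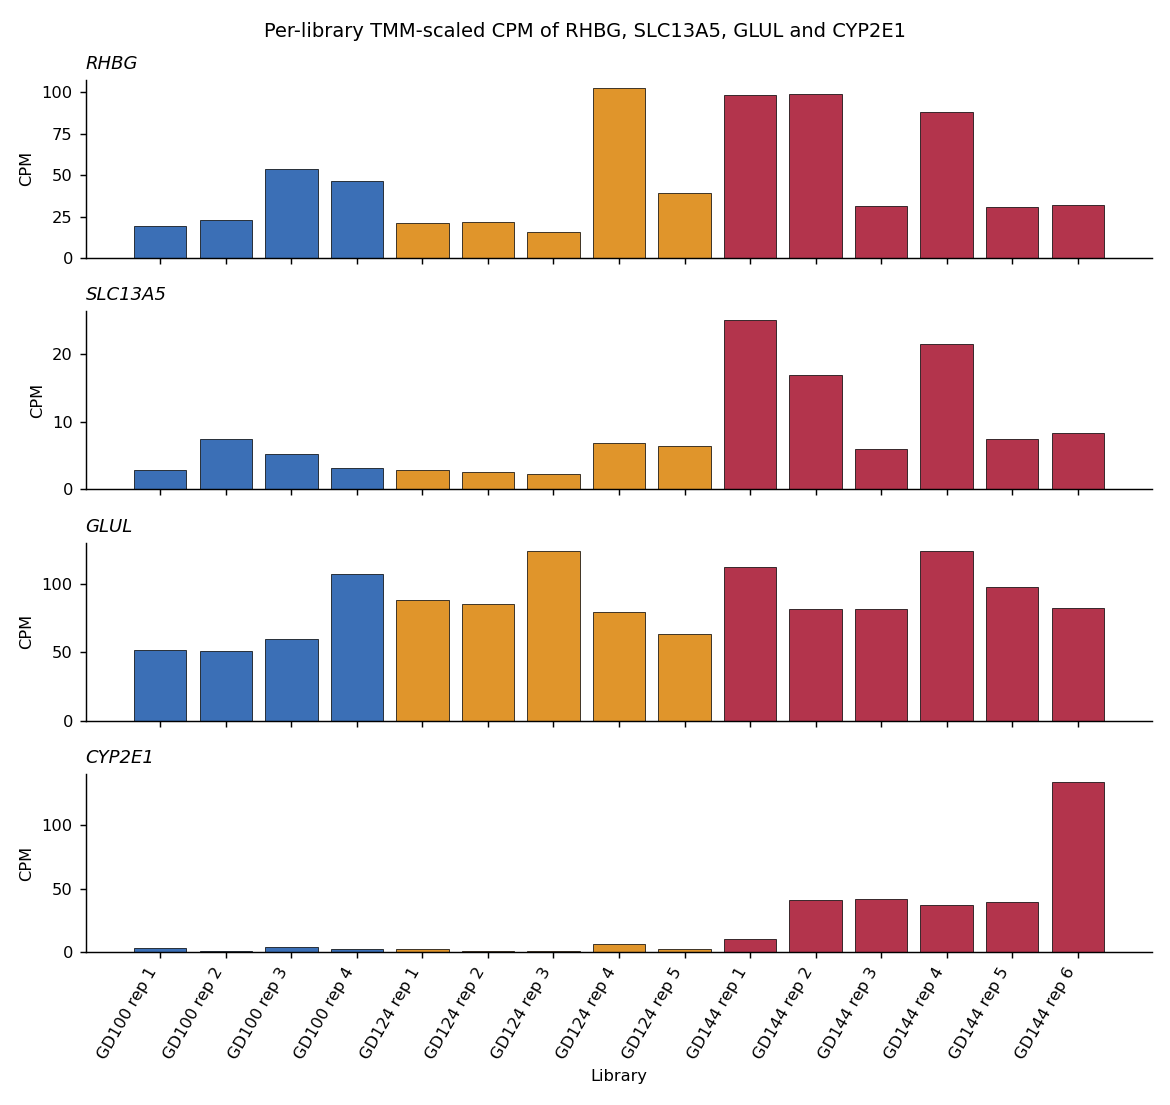
CPM of RHBG, SLC13A5, GLUL and CYP2E1 (vertical axes from 0) in each of the 15 libraries (bars, coloured by stage). RHBG and SLC13A5 were both high in GD144 replicates 1, 2 and 4, whereas GLUL ranged from 81.3 to 123 CPM over all GD144 libraries and CYP2E1 was highest in GD144 replicate 6, at 133.5 CPM. SLC13A5 was chosen for its likeness to RHBG.

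Hepatocyte markers rose in the earlier interval (8 of 10 higher, 0 lower), and in the later one 2 were higher and 1 lower. Their sums were 58050.3 to 175150 CPM in GD100 libraries, 219861 to 257287 in GD124 libraries and 172361 to 214398 in GD144 libraries. Beside the mean log2 level of these markers, all 5 GD124 libraries lay below all 4 GD100 libraries for GLUL (-6.62 to -5.91 against -5.84 to -5.14), LGR5 (-12.65 to -11.49 against -10.54 to -8.82), RNF43 (-8.31 to -7.98 against -7.74 to -6.69) and ZNRF3 (-8.21 to -7.42 against -7.15 to -6.66). For AXIN2, TBX3 and RHBG the stages overlapped on this scale. None of these 7 genes separated GD144 from GD124 on it. The marker mean itself was 11.43 at GD100 and 12.72 at GD124, so a gene of unchanged CPM also falls on this scale. In CPM the changes of GLUL, RNF43 and ZNRF3 in that interval were log2 0.39, 0.14 and 0.40, none called. The share of all tested genes that separate in this way was not counted. The scale describes proportions in the libraries and was not tested.

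The other genes of the pathway were read from lists that do not hold the 10 genes. Of all tested genes 16.6% rose and 17.4% fell in the earlier interval, and 12.1 and 15.4% in the later one. Over the whole span 27.1% rose and 27.9% fell. These shares stand beside the counts of every list below. Of 20 further ligand and R-spondin genes, 6 were tested. In the earlier interval 1 rose and 0 fell, and in the later one 0 rose and 2 fell. Over the whole span 2 rose and 2 fell. WNT9A, at 0 to 0.314 CPM at GD100 and 0.239 to 1.1 CPM at GD144, rose over the whole span (log2 2.43, edgeR adjusted p = 0.0055). Without GD100 replicate 2 the WNT9A log2 change was 3.16. WNT2B rose from 2.19 ± 2.69 (SD, n = 4) to 16.7 ± 9.69 CPM (SD, n = 5) in the earlier interval (edgeR adjusted p = 0.029), at 0 CPM in GD100 replicate 2 and 6.03 in replicate 1, a call lost in 7 of 25 alternatives, which include leaving out GD100 replicate 2, 3 or 4 or GD124 replicate 2. Its log2 change was 2.92, and 4.23 without GD100 replicate 1. WNT4 fell from 0.554 to 0.108 CPM and WNT11 from 1.66 to 0.65 CPM in the later interval (log2 -2.35 and -1.36, edgeR adjusted p = 0.00117 and 0.021), and without GD124 replicate 5 the WNT11 call was lost (adjusted p = 0.0555). At GD144 WNT4 was at 0.0531 to 0.208 CPM, around the floor of detection, so the size of its fall is uncertain. WNT2B, WNT4 and WNT11 overlap another gene in the annotation used here.

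All 19 genes for Wnt secretion and reception were tested. In the earlier interval 8 rose and 2 fell (median log2 change 0.49 beside 0.02 over all tested genes), with scaling by total counts alone 5 rose and 4 fell, and with GD100 reduced to replicate 1 LGR6 was not called and 7 rose and 0 fell. In the later interval 2 rose and 2 fell, and over the whole span 11 rose and 2 fell. The Frizzled gene FZD4 rose in both intervals, from 27.9 ± 8.12 (SD, n = 4) through 63.8 ± 14 (SD, n = 5) to 116 ± 9.74 CPM (SD, n = 6), by log2 1.195 and 0.86 (edgeR adjusted p = 0.000474 and 0.00159), the former 1.87 with GD100 reduced to replicate 1. FZD5, another Frizzled gene, rose by log2 0.78 in the earlier interval (edgeR adjusted p = 0.00135). The co-receptor gene LRP6 rose by log2 0.997 in the earlier interval and by 1.45 over the whole span (edgeR adjusted p = 0.000697 and 3.35e-06). Of the other R-spondin receptor genes LGR4 rose from 33.4 ± 13.4 to 68.2 ± 9.33 CPM in the earlier interval (log2 1.03, edgeR adjusted p = 0.00164) and was at 80.8 CPM at GD144. LGR6 fell from 3.12 CPM at GD100 to 0.272 at GD124 (edgeR adjusted p = 0.00192) and was at 0.0266 CPM or less in every GD144 library, below the floor of detection. LGR6 was at 0.379 CPM in GD100 replicate 1 and at 2.5 to 5.53 in the others, and it overlaps UBE2T in the annotation. Strand use is unknown, and the part of UBE2T reads in the LGR6 values was not tested. PORCN, whose enzyme adds the lipid that Wnt proteins need for secretion, fell from 7.96 to 3.38 CPM in the later interval (log2 -1.23, edgeR adjusted p = 0.00035).

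Of 20 tested transducers 4 rose and 4 fell in the earlier interval, 2 rose and 2 fell in the later one, and 8 rose and 5 fell over the whole span (median log2 changes of 0.11, 0.07 and 0.16). Of all tested genes 34, 27.5 and 55% were called in these comparisons. CTNNB1, the gene of beta-catenin itself, rose from 99.6 ± 18.9 (SD, n = 4) to 163.8 ± 38.9 CPM (SD, n = 5) (log2 0.72, edgeR adjusted p = 0.00707), and the destruction complex gene AXIN1 fell by 0.53 on the log2 scale (edgeR adjusted p = 0.00591). DVL1, a Dishevelled gene that relays the receptor signal, fell by 0.75 on the log2 scale (edgeR adjusted p = 0.00812). TNKS, whose enzyme marks AXIN proteins for breakdown, rose by log2 0.58 (edgeR adjusted p = 0.00868), or 1.23 with GD100 reduced to replicate 1, and was not called with total counts alone (adjusted p = 0.0872). BCL9L, a co-activator of beta-catenin, rose late (log2 0.89, edgeR adjusted p = 0.00236). APC, of the destruction complex, rose late (log2 0.72, edgeR adjusted p = 0.000444), and BTRC, which marks beta-catenin for breakdown, fell in both intervals (log2 -0.91 and -0.94 with edgeR adjusted p = 0.00968 and 0.00512). BTRC was at 181 and 130 CPM in GD100 replicates 2 and 3 and at 77.4 and 74.6 CPM in replicates 1 and 4. In each stage the highest BTRC value came from the library with most erythroid transcripts, GD100 replicate 2, GD124 replicate 5 and GD144 replicate 3. The part of the erythroid transcripts in this fall was not tested. Over the whole span the BTRC log2 change was -1.85, and -1.26 with GD100 reduced to replicate 1.

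Inhibitors and other targets were mixed, with 3 of 18 tested genes higher and 2 lower in the earlier interval, 3 higher and 6 lower in the later one and 5 higher and 2 lower over the whole span. The secreted inhibitor gene DKK1 and the cyclin gene CCND1 had their highest means at GD124. DKK1 rose from 2.19 to 8.77 CPM and then fell to 4.42 CPM, and the difference between its later and earlier change was -2.99 (edgeR adjusted p = 0.00409). At GD124 DKK1 was at 16.2 CPM in replicate 4 and at 4.49 to 8.71 CPM in the others. GD124 replicate 1, the lowest, lay within the GD144 range of 3.37 to 4.95 CPM. CCND1 rose from 27.3 to 117.9 CPM and fell to 57 CPM (difference -3.16, edgeR adjusted p = 0.00187). MYC was lowest at GD124, like LGR5, at 27.7, 14.2 and 64.9 CPM, and was called lower and then higher (edgeR adjusted p = 0.0251 and 8.97e-05). Its earlier call was lost in 6 of 25 alternatives, which include leaving out GD100 replicate 2 or 3 or GD124 replicate 3. At GD144 MYC was at 19.5 CPM in replicate 2 and at 60.8 to 84.7 CPM in the others. That replicate lay within the GD100 range of 17.8 to 35.6 CPM. SFRP5, a secreted Wnt inhibitor, fell from 15.9 to 3.41 and 0.41 CPM, and the GD100 mean joins 5.05 and 7.2 CPM in replicates 1 and 4 with 24.6 and 26.8 CPM in replicates 2 and 3. With GD100 reduced to replicate 1 its earlier change was not called. CTNNBIP1, which binds beta-catenin and blocks its contact with TCF factors, rose late from 5.42 to 19.6 CPM (log2 1.85, edgeR adjusted p = 4.03e-06). NOTUM and NKD1, Wnt feedback genes like AXIN2 and RNF43, were chosen after their values were seen. NOTUM averaged 8.34, 10.7 and 10.6 CPM and NKD1 0.643, 1.69 and 1.01 CPM over the stages, and no comparison of them was called.

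**Figure D5:**
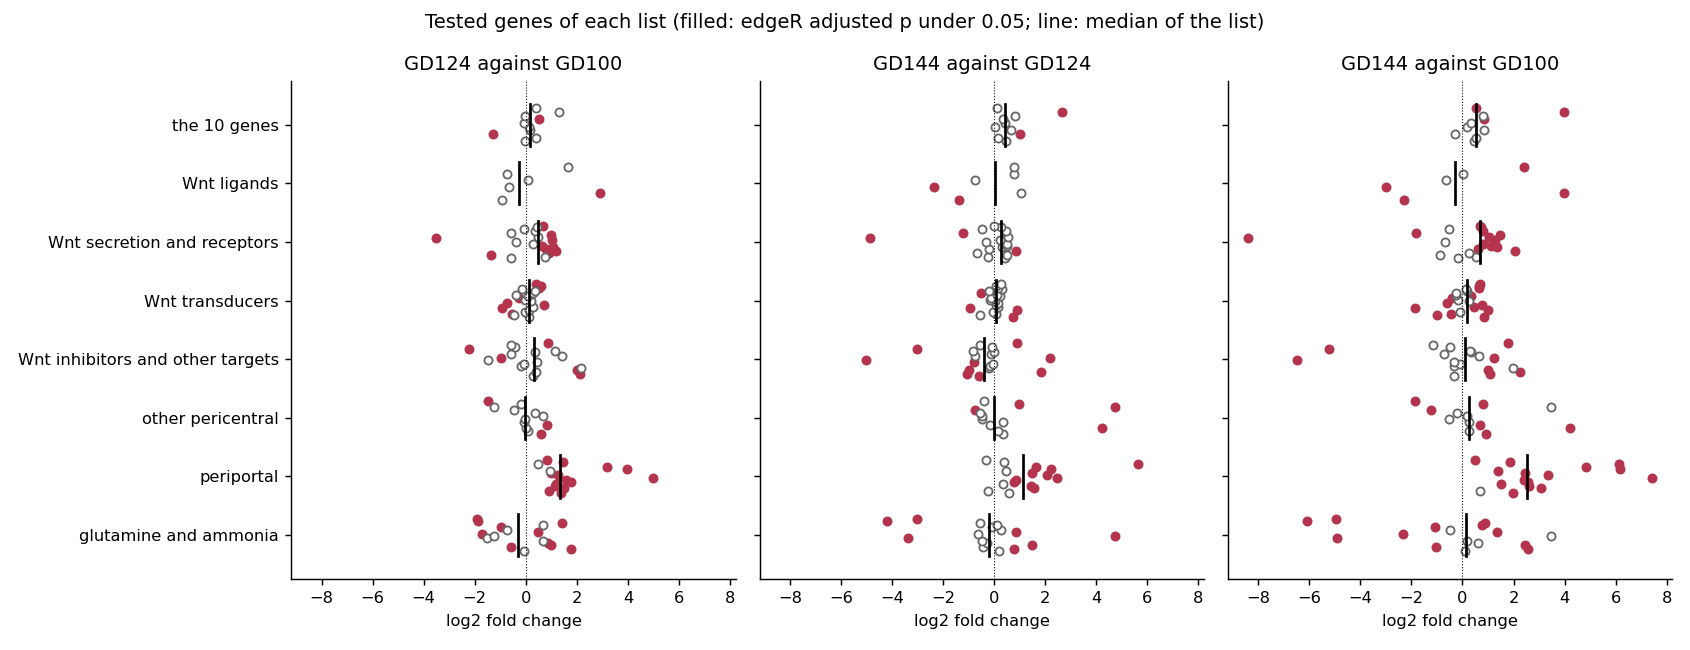
Log2 fold change (horizontal axes) of each tested gene in the 10-gene group and in 7 further lists (rows) for the 3 comparisons (panels), with filled points for an edgeR adjusted p under 0.05 and a line at each list's median. The periportal list has medians of 1.32, 1.14 and 2.51, and the other pericentral list has medians of -0.02, -0.0032 and 0.25. The lists share some genes.

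Other genes known from pericentral hepatocytes were called in both directions. Of 15 names 13 matched and 12 were tested, of which 2 rose and 1 fell in the earlier interval, 3 rose and 1 fell in the later one and 4 rose and 2 fell over the whole span. CYP2E1, a cytochrome that depends on Wnt signals in mouse liver, was at 4.15 CPM or less at GD100 and at 0.97 to 6.36 CPM at GD124. At GD144 it ranged from 10.4 CPM in replicate 1 to 133.5 CPM in replicate 6, with the other 4 libraries at 36.9 to 41.8, and every GD144 library was above every earlier one. It rose by log2 4.23 in the later interval (edgeR adjusted p = 0.000435), and by 4.83 without GD124 replicate 4. AHR, the receptor for dioxins and related ligands, rose by log2 0.58 in the earlier interval and 0.93 over the whole span (edgeR adjusted p = 0.00858 and 6.53e-05), and the former was lost with total counts alone and with GD100 reduced to replicate 1. SLC1A4, a carrier of neutral amino acids, rose late (log2 0.98, edgeR adjusted p = 0.0017). SLC1A2, a glutamate importer that sits with glutamine synthetase, was called higher late (log2 4.72, edgeR adjusted p = 0.0423), but it was at 4.27, 9.58 and 31.8 CPM in GD144 replicates 1, 5 and 6 and at 0.0577 CPM or less in replicates 2 to 4, and the call was lost in 13 of 24 alternatives. Its log2 change was 3.29 without GD144 replicate 6 and 5.70 without GD124 replicate 1. SLC13A3, a dicarboxylate transporter, fell over the whole span (log2 -1.23, edgeR adjusted p = 0.000552). Of 16 tested periportal genes 14 rose in the earlier interval, 10 in the later one and 15 over the whole span, and 0 fell in any of them, led over the whole span by ASL of the urea cycle (log2 3.08) and the glucose-releasing enzyme gene G6PC1 (log2 7.43). With GD100 reduced to replicate 1 7 rose in the earlier interval.

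Genes that make, use or carry glutamine and ammonia were called in both directions. CPS1, which starts the urea cycle from ammonia, rose in both intervals (log2 1.78 and 0.79, edgeR adjusted p = 0.000654 and 0.0376). GLS2, the glutaminase of periportal hepatocytes, rose from 49.2 ± 18.6 (SD, n = 4) through 96.7 ± 17.2 (SD, n = 5) to 271.5 ± 78.4 CPM (SD, n = 6) (log2 0.98 and 1.49, edgeR adjusted p = 0.0127 and 0.000422). The carriers SLC1A5 (log2 -1.71, or -0.96 with GD100 reduced to replicate 1) and SLC38A2 (log2 -0.97) fell early and SLC38A4 rose (log2 1.44), of which SLC38A2 was not called with GD100 reduced to replicate 1 (adjusted p = 0.0901). SLC1A5 was at 90.3 and 73.5 CPM in GD100 replicates 2 and 3, which held the most erythroid transcripts of that stage. It was at 35.1 and 37.6 CPM in GD100 replicates 1 and 4, and at GD144 it was highest in replicate 4 (19.5 CPM). SLC7A5 and SLC38A5 fell in the later interval (log2 -3.03 and -4.19), beside erythroid markers of which 9 of 9 fell. At GD144 both were highest in replicate 3, the library with the most erythroid transcripts of its stage. SLC7A5 was at 11.3 CPM there and at 2.84 to 4.05 in the others, and SLC38A5 was at 3.37 CPM there and at 0.545 or less in the others. Without that library the log2 changes were -3.50 and -5.65. The part of the erythroid transcripts in these falls was not tested. The mitochondrial glutamate carrier gene SLC25A22 rose late (log2 0.87, edgeR adjusted p = 0.000392). Of the relatives of RHBG, RHAG, which is an erythroid gene, averaged 370.1 CPM at GD100 and 128.7 at GD124, and at GD144 was at 54.2 CPM in replicate 3 and at 0.33 to 6.57 in the others, and RHCG was not tested, at 0.0948 CPM or less in every library. RHAG and RHCG were chosen after their values were seen. In the whole list of 16 tested genes 5 rose and 5 fell in the earlier interval, 4 rose and 3 fell in the later one and 5 rose and 6 fell over the whole span. This list shares CPS1 and GLS2 with the periportal list, and OAT and SLC1A2 with the other pericentral list.

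By the same measure of likeness, the nearest patterns to the other genes were as follows. Each was picked for its likeness, so shared highs and lows follow from the choice. WNT9B was nearest to HEY1, a target of Notch signals in endothelium, which differed by 0.71 on average, and EGLN3 differed by 0.73, where the median over all candidate genes was 1.69. HEY1 went from 4.28 through 11 to 56.6 CPM. LGR5 was nearest to EMC9 (0.32) and MYL9 (0.32), whose means were also lowest at GD124. EMC9 was at 17.1, 9.3 and 18.9 CPM and MYL9 at 26.5, 14.6 and 20.6 CPM. TBX3 was nearest to ERN1 (0.14), GLUL to KIF1C (0.14), AXIN2 to ATG2A (0.17), RSPO3 to TLNRD1 (0.14), WNT2 to CLEC2D (0.36), RNF43 to GPR108 (0.11) and ZNRF3 to NFE2L2 (0.14). Centred within stages, the nearest to RSPO3 were TCF21 (0.13) and PRELP (0.13), genes known from stellate cells and connective tissue, and both shared with RSPO3 its high value in GD100 replicate 2 (11.49 and 59.9 CPM) and its low one in GD100 replicate 1 (4.42 and 18.4 CPM).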

How the data were processed

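Per the labels' protocols, paired-end libraries were made from fetal liver RNA after poly(A) selection. The authors deposited 1 table of estimated counts per gene, not normalised. The submitters' processing notes name DRAGEN, with its version, strand setting, annotation and genome build each not given in the sources used here. Fractional values made up 6.55% of the table and were rounded, which moved no library total by more than 27.86. Each of the 15 columns matched 1 sample by its code.

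All 15 libraries entered 1 fit with a term per stage in edgeR 4.0.16 (R 4.3.3), with TMM factors, filterByExpr (a minimum count of 10), robust quasi-likelihood F-tests and Benjamini-Hochberg adjustment over 16977 genes at a threshold of 0.05. Standard errors come from dividing the log2 change by the root of F, and 95% intervals use the t distribution. Log2 levels use a prior count of 2. Markers are compared by differences of log2 levels, with no test. The procedure was tested on simulated data in which few genes changed, up and down with like frequency. That setting could not check the scaling where many genes change, as here. The 10 genes and all lists were chosen with earlier results of these data known. Genes named besides the 10 come from the up to 4 tested genes of smallest adjusted p per list and comparison, not all of which are given, and a gene named for 1 comparison may be given in others. To these are added the nearest patterns among tested genes with a symbol and at least 1 CPM on average, of which the first 1 to 3 are given. Alternatives were other scalings, filters, DESeq2 1.42.0, limma-voom (limma 3.58.1), a replicate block, fits of 2 stages, and fits without single libraries or without GD100 replicates 2 to 4.

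RefSeq names of assembly ARS-UI_Ramb_v3.0 matched all 10 genes. Strand use is unknown, so the values of overlapping genes are uncertain. Of the 10 these are AXIN2 and TBX3 (with long noncoding RNA genes), LGR5 (with a small nuclear RNA gene), RSPO3 (with a transfer RNA gene) and RNF43 (with SUPT4H1), and RNF43 had fractional counts in 13 of 15 libraries. Of the list genes named they are AHR, APC, BCL9L, BTRC, DVL1, GLS2, LGR6, PORCN, SLC1A2, SLC38A4, TEK, TNKS, WNT2B, WNT4 and WNT11. Genes are not compared in level with each other, since no transcript lengths were used. Some results are not reported here.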

Additional observations from a re-analysis of the deposited data

Results flagged for a closer look

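In 30 groups (10 genes in 3 stages), 3 libraries lay far from the rest of their stage, where chance flags about 1 group in 20. GLUL was at 106.9 CPM in GD100 replicate 4 and at 51.1 to 59.4 CPM in the other 3 libraries. WNT2 was at 1.04 CPM in GD124 replicate 2 and at 0.474 to 0.598 CPM in the other 4. RHBG was at 102.5 CPM in GD124 replicate 4 and at 15.6 to 39.5 CPM in the other 4. LGR5 changed differently in the 2 intervals, since its later change minus its earlier change was 2.29 on the log2 scale (edgeR adjusted p = 0.0209), with all 5 GD124 libraries below all 4 GD100 libraries and 4 of 6 GD144 libraries above all GD124 libraries.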

How the results depend on the processing

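Over 25 alternative analyses WNT9B kept its calls in the later interval and the whole span, and TBX3 in the whole span. Of 990 values for the 10 genes, 918 kept direction and side of the threshold, 22 lost a call, 16 gained one and 34 changed sign, 0 of these called. The causes were not tested. In the earlier interval RHBG changed sign with limma-voom (-0.0656), total counts alone (-0.0305) and single libraries left out (range -0.55 to 0.42), RNF43 with total counts (-0.0297), RSPO3 with limma-voom (0.0163) and single libraries left out (-0.26 to 0.24), WNT2 with limma-voom (0.11) and single libraries left out (-0.27 to 0.61), and AXIN2 with single libraries left out (-0.22 to 0.14). So did RNF43 in the later interval with single libraries left out (-0.0253 to 0.115). For the later minus the earlier change, GLUL (-0.508 to 0.0534) and RNF43 (-0.258 to 0.0694) changed sign with single libraries left out, and RNF43 (0.15) and TBX3 (0.10) with total counts.

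With GD100 reduced to replicate 1, which assumes that this lone library varies like the others, 3167 genes and 1 of the 10 were called in the earlier interval. RNF43 then gave -0.25 and RSPO3 0.72 there. Over the whole span RNF43 gave -0.20, WNT2 -0.21 and KREMEN2, a Wnt inhibitor receptor gene at -6.49 in the main fit, 2.66. For the difference of changes RHBG gave -0.36, RNF43 0.30, RSPO3 -0.29 and WNT9B -4.45, with 0 of the 10 called. Total counts left 1 of the 10 called early. With single libraries left out, 1 to 3 of the 10 were called in the earlier interval, and for the difference 0 to 1 of the 10 and 379 to 1743 genes, beside 1002. DESeq2 called 1816 genes there.

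Same-numbered libraries did not deviate together. Correlations of their deviations ran from -0.155 to 0.144 over 13 pairs, so numbers were not taken to pair samples, and 2 of 15 libraries correlated best with their own number. With a replicate block 4544, 3306 and 8259 genes were called in the earlier interval, the later one and the whole span, and for the difference 325 genes and 0 of the 10. In the earlier interval the block gave -0.00568 for RHBG, 0.0038 for RSPO3 and 0.24 for WNT2. The LGR5 rise missed the threshold (adjusted p = 0.0799), and GLUL over the whole span (0.0375) and TBX3 in the later interval (0.0438) passed it.

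Of 75 calls of named list genes, 56 held in every alternative and 19 were lost in at least 1. Depth limits WNT2 and WNT9B most, at 8 to 58 and 0 to 151 counts a library.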
